A study of Mus musculus with 25 samples.

Results

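A divergent (bidirectional) promoter is a stretch of DNA from which a pair of neighbouring genes on opposite strands is transcribed in opposite directions. To determine how Spin1 and H3K4me3 occupy such promoters in myoblasts, pairs of protein-coding genes were collected whose curated RefSeq transcription start sites (TSSs) lie head to head at most 1000 bp apart, with the TSS on the minus strand to the left of the TSS on the plus strand. This rule uses the annotation of the mouse genome (GRCm38, named mm10 in the study) and no measured value. It found 932 pairs, which hold 1849 of the 21000 protein-coding genes with a curated transcript (8.8%). Of these genes, 15 belong to 2 pairs, and 16 pairs share both TSSs with another pair, so that 924 promoters are distinct.

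Chromatin immunoprecipitation followed by sequencing (ChIP-seq) had been performed in primary myoblasts (PriMBs), the cultured precursors of muscle fibers, which the study isolated by preplating from limb muscle of C57BL/6 N mice (C57BL/6 in the labels) at 10 days of age. There was 1 library with the custom SPIN1-5867 antibody and 1 with an antibody to H3K4me3, and both peak lists were called against the same input chromatin, which was not treated with an antibody. The cells carried no Spin1 deletion. The 22 RNA-seq samples of the series, from muscle of Spin1-deficient and control mice, were not analysed here. The antibody label of the second library reads H3K4me, whereas its title and the methods of the study name H3K4me3, the name used here. With 1 library per antibody there is no replicate error and no test between conditions. The 95% intervals given here (Wilson for shares, Newcombe for differences of shares) cover counting error only, and they are too narrow where both genes of a pair share a peak.

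Divergent promoters are a common arrangement in mammalian genomes. They are usually CpG-rich, seldom hold a TATA box, and often drive genes that every cell needs, such as those for DNA repair, mitochondrial function and protein synthesis. H3K4me3, trimethylation of lysine 4 of histone H3, marks the nucleosomes around active and poised start sites, and Spin1 (Spindlin1) is a chromatin protein whose Tudor-like domains bind this mark.

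The lists held 17106 Spin1 peaks with a median width of 1739 bp and 30763 H3K4me3 peaks with a median width of 1655 bp. All 10 myoblast markers examined, among them Myod1, Myf5, Pax7 and Des, had an H3K4me3 peak within 1 kb of a TSS, and 9 had a Spin1 peak. Of the 4 endothelial markers 2 had H3K4me3 (Pecam1 and Tie1 did not), and of the 4 blood markers 1 had it (Ptprc, Adgre1 and Spi1 did not), while no marker of these cell types had a Spin1 peak. Of the 5 fibroblast markers, 4 had H3K4me3 and 2 had Spin1, and of the 4 nerve and glia markers 3 had H3K4me3 and 2 had Spin1. Over all protein-coding genes, 68% had H3K4me3 and 56.7% had Spin1 within 1 kb of a TSS, and the marker lists are too short to set against these shares. The part of other cells of the culture in the values below was not tested.

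The interval between both TSSs was short. Its length had a median of 148.5 bp, with quartiles at 74 and 296 bp, and 707 pairs (75.9%) had TSSs at most 300 bp apart. The closest pairs, Tcta/Rhoa and Capza1/St7l, start at adjacent bases. Rhoa encodes a small GTPase of the actin cytoskeleton and Capza1 a subunit of the actin capping protein. The pairs lay on 20 chromosomes, with 82 on chromosome 11, 25 on chromosome X and none on chromosome Y. Here and below, the gene on the minus strand is named first.

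The intervals of 7 pairs are shown because they span the states found. The first 4 carried both peaks, the fifth carried H3K4me3 only, and the last 2 carried neither. Each is the GRCm38 sequence between both TSSs, read 5′ to 3′ on the plus strand, so that the first gene reads away to the left and the second to the right. No other curated TSS lies inside any of them. Capitals mark every CpG dinucleotide.
Brca1/Nbr1 (chr11:101551956-101552106): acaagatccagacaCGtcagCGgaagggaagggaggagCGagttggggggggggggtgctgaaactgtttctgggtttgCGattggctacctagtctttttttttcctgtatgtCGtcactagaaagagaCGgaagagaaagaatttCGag
Tsc2/Nthl1 (chr17:24632628-24632681): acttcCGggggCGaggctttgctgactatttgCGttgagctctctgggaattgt
Psmb9/Tap1 (chr17:34187331-34187555): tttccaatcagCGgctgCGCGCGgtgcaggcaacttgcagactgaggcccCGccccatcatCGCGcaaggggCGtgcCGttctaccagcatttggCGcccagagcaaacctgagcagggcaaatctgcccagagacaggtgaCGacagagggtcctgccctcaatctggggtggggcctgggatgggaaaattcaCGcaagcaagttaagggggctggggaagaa
Cdc27/Myl4 (chr11:104550621-104550662): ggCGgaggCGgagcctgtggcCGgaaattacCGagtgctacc
Col4a4/Col4a3 (chr1:82586850-82586920): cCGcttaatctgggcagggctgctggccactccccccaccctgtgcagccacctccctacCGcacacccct
Dcst1/Dcst2 (chr3:89365254-89365318): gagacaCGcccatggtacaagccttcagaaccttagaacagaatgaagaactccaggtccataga
Kctd19/Lrrc36 (chr8:105413503-105413621): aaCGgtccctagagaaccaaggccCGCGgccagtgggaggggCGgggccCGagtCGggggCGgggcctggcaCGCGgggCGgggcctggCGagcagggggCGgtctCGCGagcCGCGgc

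The Psmb9/Tap1 interval holds 12 CpGs in 225 bases and the Cdc27/Myl4 interval 4 in 42 bases. In contrast, the interval of Col4a4/Col4a3 holds 2 CpGs in 71 bases and that of Dcst1/Dcst2 holds 1 in 65 bases. CpG count in the interval alone did not separate the states, since Kctd19/Lrrc36, without either peak, has 16 CpGs in 119 bases, whereas Brca1/Nbr1, with both peaks, has 7 in 151 bases.

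Nearly all divergent promoters carried both Spin1 and H3K4me3. A Spin1 peak overlapped TSS±1 kb of both genes in 881 of 932 pairs (94.5%, 95% interval 92.9 to 95.8), beside a background of 56.7% of all protein-coding genes with a Spin1 peak in that window. H3K4me3 was found at both genes of 909 pairs (97.5%, 96.3 to 98.3), beside a background of 68% of genes. All 881 pairs with Spin1 also had H3K4me3. A further 28 pairs had H3K4me3 only, and 23 had neither peak. No pair had a peak of either library at 1 gene only. Since the windows of both genes overlap in every pair, 1 peak usually reaches both, so the TSS bases themselves were examined next.

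A single Spin1 peak lay over the TSS of both genes in 854 pairs (91.6%, 89.7 to 93.2). Separate Spin1 peaks covered the TSSs in 6 pairs, only 1 TSS was covered in 17 pairs, and neither TSS base was covered in 55 pairs, of which 4 had a Spin1 peak elsewhere in the windows. For H3K4me3, a single peak covered both TSSs in 899 pairs, separate peaks in 1, and 1 TSS only in 6. In total, 885 Spin1 peaks, or 5.17% of the list, lay over the windows of these pairs, and 13 of them reached the windows of more than 1 pair.

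The share of pairs under a single Spin1 peak changed little with the distance up to 500 bp and was lower above it. It was 95.9% (93.2 to 97.6) for the 320 pairs with TSSs up to 100 bp apart, 92.3% for over 100 and up to 200 bp, 95.7% for over 200 and up to 300 bp and 91.0% (84.2 to 95.03) for over 300 and up to 500 bp. Among the 114 pairs with TSSs over 500 and up to 1000 bp apart it was 73.7% (64.9 to 80.9), an interval that lies below those of all shorter classes. For H3K4me3, the share in this last class was 92.98% (86.8 to 96.4), which overlaps the intervals of the shorter classes. The median CpG ratio was also lowest in this class, at 0.708 against 0.769 to 0.803 in the other 4, and its part in the lower share was not tested.

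The limit of 1000 bp is set by the rule, and the pairs close to it were too few to show whether the shares break there. Of the 31 pairs with TSSs over 800 and up to 1000 bp apart, 27 had Spin1 at both genes (87.1%, 71.15 to 94.9). A single Spin1 peak covered both TSSs in 19 of them (61.3%, 43.8 to 76.3). Of the 28 head-to-head pairs at over 1000 and up to 1200 bp, just outside the rule, 21 had Spin1 at both genes (75%, 56.6 to 87.3). A single Spin1 peak covered both TSSs in 12 of them (42.9%, 26.5 to 60.9). Both shares were lower outside the limit, with overlapping intervals.

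**Figure D1:**
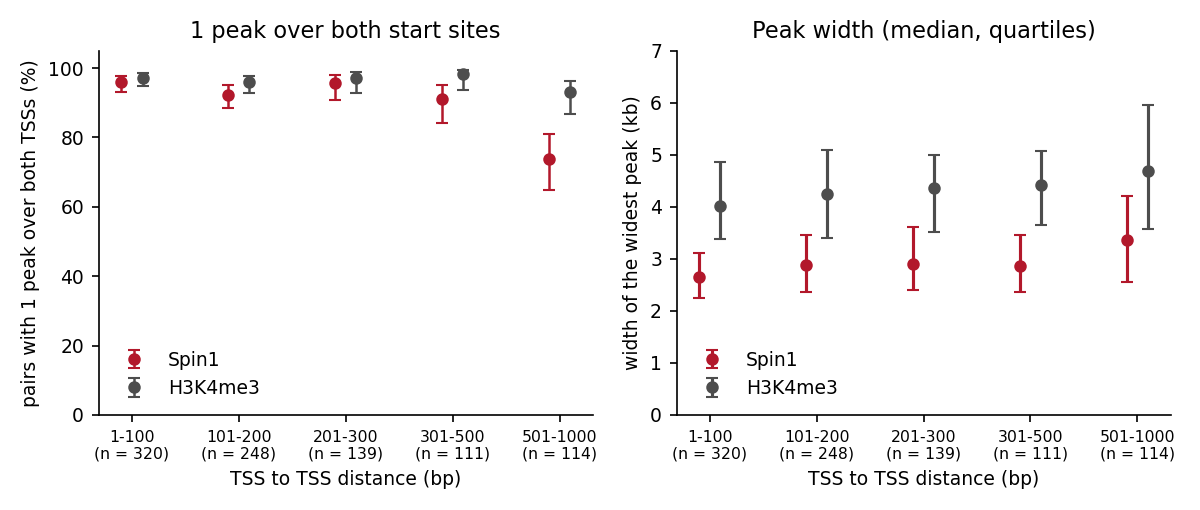
Left, share of divergent pairs with 1 peak over both TSSs, with 95% Wilson intervals, in 5 classes of TSS to TSS distance; right, width of the widest peak of each occupied pair in the same classes (median, bars from the lower to the upper quartile). The Spin1 share is 73.7% in the class of over 500 and up to 1000 bp and at least 91.0% in the other 4 classes, while both peaks are widest in the class with the longest distance.

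Peaks grew wider by about the distance between the TSSs. The widest Spin1 peak of a pair had a median width of 2654 bp (95% interval of the median 2535 to 2757) where the TSSs were up to 100 bp apart and of 3361 bp (3049 to 3768) where they were over 500 and up to 1000 bp apart. After subtraction of the TSS to TSS distance, the medians of the 5 classes ranged from 2530 to 2736 bp. The H3K4me3 peaks behaved likewise, with medians of 4014 bp in the first and 4680 bp in the last class.

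At the median, the Spin1 peak reached about as far into the gene on the minus strand as into the gene on the plus strand. Where 1 Spin1 peak covered both TSSs, it extended past the TSS by a median of 1307 bp (1274 to 1355) into the gene on the minus strand and by 1300 bp (1266 to 1326) into the gene on the plus strand, with overlapping intervals. The strand labels follow the orientation of the reference genome, so near-equal medians do not show balance within a pair. With the 2 reaches of each pair sorted, the shorter had a median of 1094 bp and the longer of 1539 bp. The ratio of the longer to the shorter had a median of 1.4. Sorting by itself sets the longer above the shorter, and no reference value for this ratio was computed. The longer reach was more than 2 times the shorter in 174 of the 854 pairs (20.4%). The reach into one gene said little about the reach into its partner, with a Spearman rho of 0.13 over the 854 pairs, whose 2 values come from the same peak and library. H3K4me3 peaks reached 1947 bp into the gene on the minus strand and 1950 bp into the gene on the plus strand at the median.

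**Figure D2:**
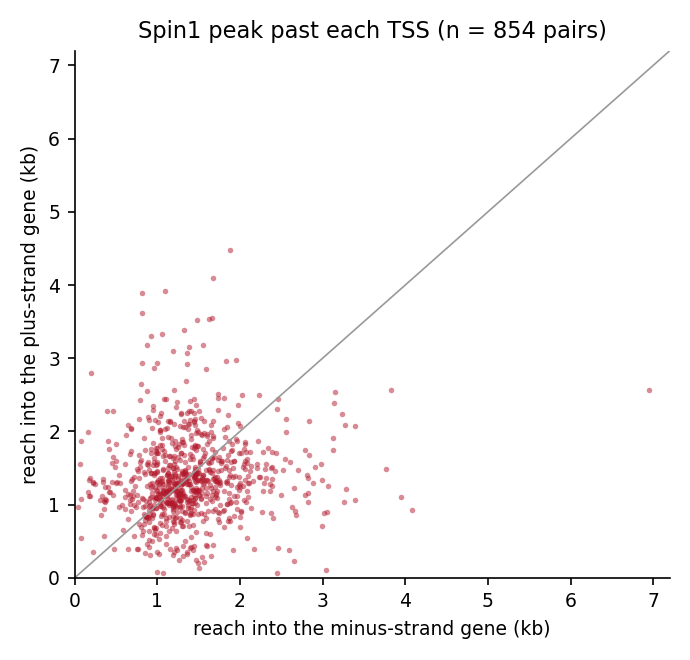
Each point is 1 of the 854 pairs with a single Spin1 peak over both TSSs; the axes give how far (kb) that peak extends past the TSS into the gene on the minus strand (horizontal) and on the plus strand (vertical), and the line marks equal reach. The points gather around the medians of 1307 and 1300 bp, and the point farthest to the right, at 6952 bp into the minus-strand gene, is Brd2/H2-DMa.

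The Spin1 peak at a divergent promoter reached far to both sides of the TSS, whereas at other promoters it reached mainly downstream. At the 1722 genes of divergent pairs whose TSS lay under a Spin1 peak, the peak extended a median of 1302 bp (1284 to 1324) downstream into the gene and 1484 bp (1460 to 1512) upstream. At the 9583 other protein-coding genes with the TSS under a Spin1 peak, it extended 1444 bp (1431 to 1459) downstream but only 672 bp (657 to 688) upstream. The downstream reach was thus shorter at genes of pairs than at other genes, with intervals that do not overlap. The peak was longer downstream than upstream at 39.5% of the genes of pairs and at 89.7% of the other genes. H3K4me3 showed the same arrangement, with 1950 bp (1911 to 1983) downstream and 2144 bp upstream at genes of pairs. At other genes it reached 2028 bp (2006 to 2048) downstream and 979 bp upstream. Protein-coding genes that face a lncRNA gene within 1 kb lay between both groups in upstream reach, at 1075 bp (1018 to 1131), with 1564 bp downstream. The upstream side of a paired gene is the transcribed side of its partner, so the upstream reach includes the distance to the partner. Where 1 peak covers both TSSs, the upstream reach of a gene is this distance plus the downstream reach of its partner. At most 1 gene of such a pair can then be longer downstream, so the arrangement itself keeps the share of 39.5% low.

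**Figure D3:**
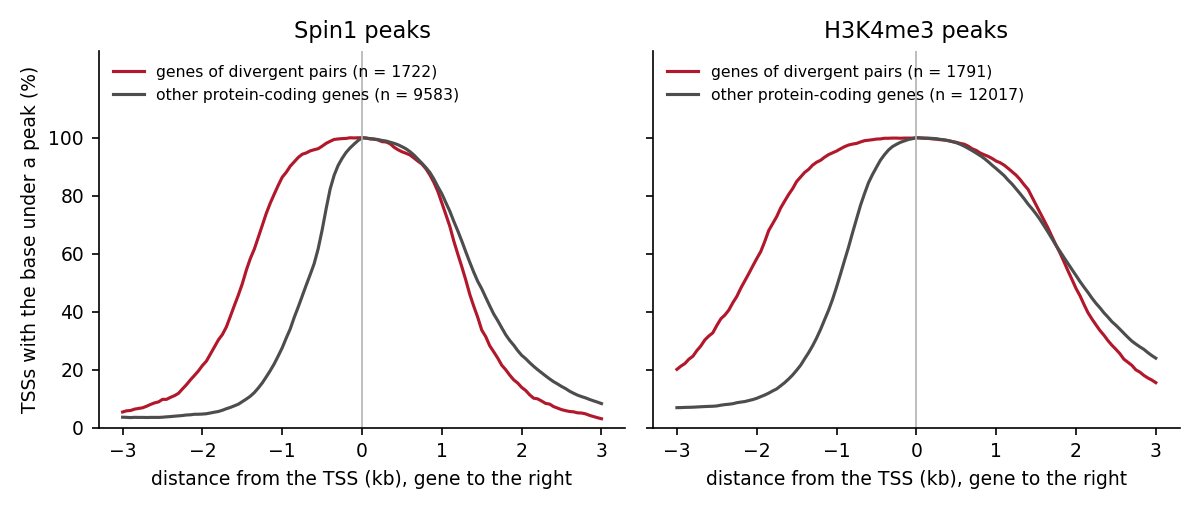
Share of TSSs whose flanking base lies under a Spin1 peak (left) or an H3K4me3 peak (right), against the distance from the TSS in kb with the gene to the right, for TSSs that lie under a peak. The curve of the genes of divergent pairs is about symmetrical, whereas that of other genes falls sooner on the upstream side, with a median Spin1 reach upstream of 672 bp beside 1484 bp at the genes of pairs. At a paired gene the upstream side is the transcribed side of its partner, mostly under the same peak, so near symmetry follows from the arrangement.

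Spin1 peaks over divergent pairs were wider than those at other protein-coding promoters, with medians of 2836 bp (2757 to 2886, 881 pairs) and 2183 bp (2162 to 2204, 9986 promoters). At promoters that face a lncRNA gene within 1 kb the median was 2662 bp (2529 to 2781, 441 promoters), with an interval that overlaps that of the pairs. The difference from the other promoters was similar among CpG-rich promoters, those with a CpG ratio (observed over expected CpGs in TSS±0.5 kb) of at least 0.6, where the medians were 2871 bp and 2303 bp. H3K4me3 peaks measured 4219 bp (4119 to 4340) at pairs and 3088 bp (3060 to 3119) at other promoters, while the lncRNA-facing promoters, at 3998 bp (3776 to 4216), again overlapped the pairs. The MACS score of a peak (its p-value as −log10, multiplied by 10) piles up at 3100, where it no longer ranks peaks. The highest Spin1 score reached at least this value at 70.0% (66.9 to 73.0) of the pairs with Spin1. It did so at 45.2% (44.2 to 46.2) of the other promoters with Spin1 and at 59.4% (54.8 to 63.9) of the lncRNA-facing ones.

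The first 1 kb downstream of the TSS lay wholly under Spin1 peaks at 71.8% of the 1849 genes of pairs and at 40.2% of the other genes, which include those without any peak. Among genes whose TSS base was under a peak, the shares were 77.1% and 80.3%, so that the downstream coverage of occupied genes was not higher in divergent pairs. Both genes were wholly covered in 530 pairs for Spin1 and in 772 pairs for H3K4me3.

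To determine whether divergent promoters differ from other protein-coding promoters in occupancy, genes were counted as occupied if at least 1 of their curated TSSs had a peak within 1 kb. Spin1 was found at 94.97% of the genes of pairs and at 53.0% of the 19151 other genes, a difference of 42 percentage points (40.7 to 43.2). H3K4me3 was found at 97.9% and 65.1%, a difference of 32.8 percentage points (31.8 to 33.7). Among the genes with H3K4me3, 97.02% of those in pairs and 81.3% of the others also had Spin1. The promoters most like divergent pairs were occupied less often as well. Genes facing a lncRNA gene within 1 kb had Spin1 in 81.3% of 550 cases, 13.7 points (10.5 to 17.3) below the genes of pairs. H3K4me3 was found at 92% of these genes, and 88.3% of those with H3K4me3 had Spin1. Genes of head-to-head pairs more than 1 and up to 5 kb apart had Spin1 in 69.8% of 802 cases, 25.1 points (21.9 to 28.5) below. Among the 422 pairs of that wider arrangement, 229 had Spin1 at both genes, 124 at 1 gene only and 69 at neither.

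CpG content differed between the genes of pairs and the other genes as a whole. The median CpG ratio was 0.770 at genes of pairs and 0.564 at other genes, and 86.2% and 46.7% had a ratio of at least 0.6. Genes facing a lncRNA gene had a median of 0.775, close to that of the pairs, and 78.2% of them had a ratio of at least 0.6. Below a ratio of 0.4 lay 10.9% of them, beside 4.38% of the genes of pairs. CpG classes were not compared for this group, so the part of CpG content in its lower Spin1 share was not tested. Within classes of like CpG ratio, the difference in Spin1 between genes of pairs and all other genes was smaller but present in every class up to a ratio of 1. In the class from 0.6 to 0.8, Spin1 was found at 97.2% (95.9 to 98.2) of 835 genes of pairs and at 85.0% (83.9 to 85.9) of 4901 other genes. In the class from 0.8 to 1, all 703 genes of pairs and 94.2% (93.4 to 94.9) of 3665 other genes had Spin1. In the class from 0.4 to 0.6, the shares were 83.9% (77.7 to 88.6) and 53.6% (51.7 to 55.4). At a ratio of 1 or more, 56 of 56 and 370 of 383 genes had Spin1, and the intervals overlap. With the other genes weighted to the CpG classes of the paired genes, 82.7% of them had Spin1 and the difference was 12.3 points, while for H3K4me3 it was 3.53 points.

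**Figure D4:**
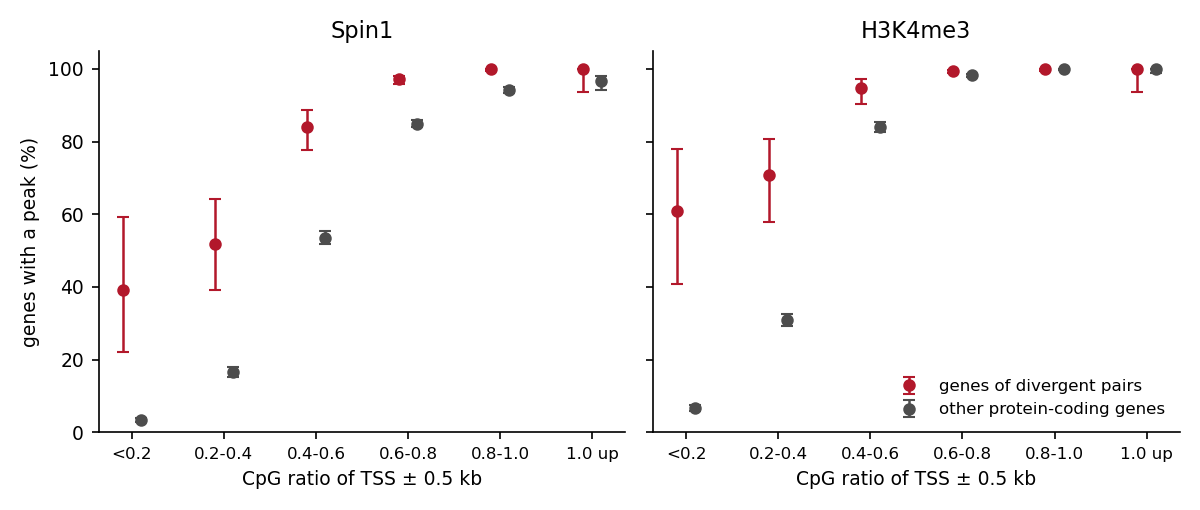
Share of genes with a Spin1 peak (left) or an H3K4me3 peak (right) within 1 kb of a TSS, with 95% Wilson intervals, in 6 classes of the CpG ratio. Genes of divergent pairs lie above other genes for Spin1 in every class, with overlapping intervals only at a ratio of 1 or more, while for H3K4me3 both groups come close to 100% from a ratio of 0.6 on.

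The share with Spin1 followed the width of the H3K4me3 peak in both groups of genes. Where the H3K4me3 peak was at most 2 kb wide, 12 of 52 genes of pairs (23.1%, 13.7 to 36.1) and 26.7% (24.9 to 28.6) of 2163 other genes had Spin1, so that no difference was detectable. Where it was more than 2 and up to 3 kb wide, the shares were 93.8% (89.4 to 96.4) and 85.4% (84.3 to 86.5). All 527 genes of pairs with a width of more than 3 and up to 4 kb and all 532 with more than 4 and up to 5 kb had Spin1, beside 95.6% and 96.7% of the other genes. Above 5 kb the shares were 99.2% and 98.2%, with overlapping intervals.

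**Figure D5:**
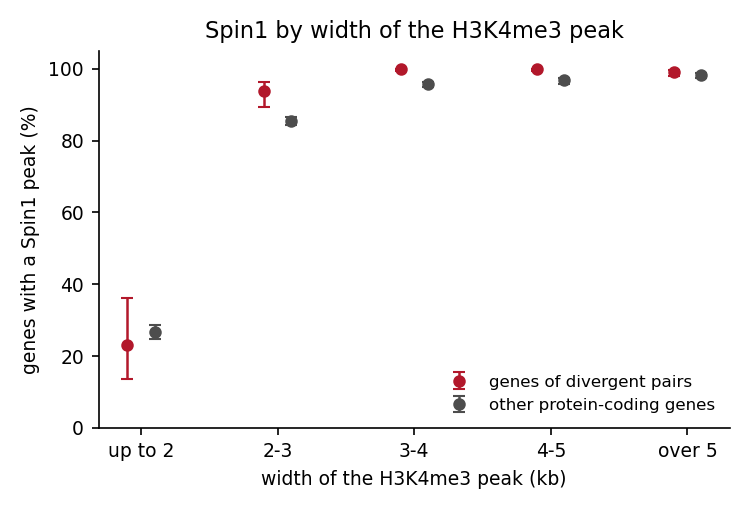
Share of genes with a Spin1 peak, with 95% Wilson intervals, among genes with an H3K4me3 peak, by the width of that peak in kb. Both groups rise from about 1 gene in 4 in the narrowest class, 23.1% and 26.7%, to over 85% in the next, and the intervals of the groups overlap in the narrowest and the widest class.

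Among pairs known from textbooks as bidirectional, 13 of the 19 listed met the rule. Of these, 12 had 1 Spin1 peak over both TSSs, which is near the share of 91.6% among all pairs. The widest was at Hspd1/Hspe1, which encode the mitochondrial chaperonin and its co-chaperonin and start 216 bp apart: the Spin1 peak spanned 5747 bp and the H3K4me3 peak 8760 bp. At Wrap53/Trp53, whose second gene encodes the tumor suppressor p53, the Spin1 peak spanned 4838 bp and the H3K4me3 peak 7604 bp, although the CpG ratio of the shared promoter was 0.552.

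Several of these pairs hold a gene of the DNA replication and repair list. At Brca1/Nbr1, a gene of double-strand break repair and one for an autophagy receptor, the Spin1 peak measured 3692 bp and reached 1283 bp into Brca1 and 2256 bp into Nbr1. The damage-response kinase gene Atm and Npat, an activator of histone genes, shared a Spin1 peak of 3022 bp. Fen1/Tmem258 (flap endonuclease) had 2752 bp, Mcm4/Prkdc (a subunit of the replicative helicase and the catalytic subunit of DNA-dependent protein kinase) had 2509 bp, Toe1/Mutyh had 2344 bp and Tsc2/Nthl1 had 2316 bp, the second gene of the last 2 pairs encoding a DNA glycosylase.

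The narrower peaks of this list belonged to genes with other roles. The immunoproteasome gene Psmb9 and the peptide transporter gene Tap1 shared a Spin1 peak of 2016 bp with a score of 901, and Mrps12/Sars2, a protein of the mitochondrial ribosome and the mitochondrial seryl-tRNA synthetase, one of 1930 bp with a score of 1688. Col4a4/Col4a3, which encode basement membrane collagen chains best known from the kidney glomerulus, had an H3K4me3 peak of 1284 bp over both TSSs and no Spin1 peak.

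Of 149 muscle genes examined, 6 belonged to divergent pairs, a share of 4.03% beside 8.8% of all protein-coding genes. All 6 had Spin1 and H3K4me3, as did most genes of pairs, of which 94.97% had Spin1. Of the 143 muscle genes outside pairs, 104 (72.7%) had Spin1. Cdc27/Myl4, a subunit gene of the anaphase-promoting complex and the essential myosin light chain of embryonic muscle and atrium, start 43 bp apart, and the Spin1 peak of 2870 bp reached 2000 bp into Cdc27 and 826 bp into Myl4. Tbc1d10b/Mylpf, the latter encoding the regulatory light chain of fast fibers, showed the largest imbalance of the 5 muscle pairs, with 2449 bp into Tbc1d10b and 71 bp into Mylpf. A second Spin1 peak lay inside Mylpf, so that 72.3% of its first 1 kb was covered. At Ruvbl2/Gys1, with muscle glycogen synthase, the reaches were 1823 and 1928 bp. At Actn3/Zdhhc24, with the alpha-actinin of fast fibers, they were 1460 and 1183 bp. Hspb2/Cryab, a pair of small heat shock proteins abundant in muscle, had a Spin1 peak of 4268 bp and an H3K4me3 peak of 7280 bp at a CpG ratio of 0.245.

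Several groups of genes that every cell needs were frequent among the members. Divergent pairs held 39 of 121 DNA replication and repair genes (32.2%), 27 of 78 mitochondrial ribosomal protein genes (34.6%), 25 of 81 oxidative phosphorylation genes (30.9%) and 26 of 104 genes of the general transcription machinery (25%), beside 8.8% of all protein-coding genes. All members of these 4 lists had Spin1 and H3K4me3, but so did most genes of the same lists outside pairs, of which 98.8%, 100%, 91.1% and 97.4% had Spin1. Pairs held 11 cytosolic ribosomal protein genes (13.1% of the list), 17 chaperone genes (22.1%), 9 proteasome genes (18.8%) and 25 zinc finger genes, the last at 5.92% of their list and so below the 8.8% of all genes. All of these had both marks, which is near the 94.97% with Spin1 among all genes of pairs, and outside pairs 94.5%, 91.7%, 94.9% and 88.7% of the same lists had Spin1. The median width of the Spin1 peak was 3946 bp at the ribosomal protein genes and 2509 bp at the DNA replication and repair genes.

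Genes of tissue-restricted families were rarely members. Of 1840 such genes, among them olfactory receptors and keratins, 1 belonged to a pair (0.054%), beside 8.8% of all protein-coding genes. This was Cyp39a1, which encodes an oxysterol hydroxylase and had both marks. None of the 33 writers, erasers and readers of H3K4me3, Spin1 included, was a member. Of the 44 collagen genes, Col4a3 and Col4a4 were members (4.5%). The H3K4me3 and collagen lists are short, and whether their shares differ from that of all genes was not tested.

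Replication-dependent histone genes formed 13 pairs, of which 12 lay on chromosome 13. Both genes had Spin1 in 12 of the 13, which is near the share of 94.5% among all pairs. In these 12, 1 peak always lay over both TSSs, and the peaks ranged from 2389 to 5189 bp with a median of 3866 bp. The exception, singled out after its values were seen, was H2bc1/H2ac1, the testis-specific pair, with an H3K4me3 peak of 520 bp that covered neither TSS and no Spin1 peak at a CpG ratio of 0.777. These 12 pairs lay under 11 distinct Spin1 peaks. In a list of 103 histone genes, 24 of the 26 in pairs had Spin1, beside 48 of the 77 outside pairs (62.3%). The histone genes are near-identical copies, so their occupancy is less certain than that of single-copy genes.

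The widest Spin1 peaks were found at Brd2/H2-DMa (9742 bp), Tshz1/Zadh2 (6849 bp), Top3a/Smcr8 (6520 bp), P3h4/Fkbp10 (6455 bp) and Hnrnpa2b1/Cbx3 (6197 bp). Brd2 encodes a bromodomain protein that binds acetylated histones and H2-DMa a subunit of the MHC class II peptide loader. The peak of this pair reached 6952 bp into Brd2 and 2564 bp into H2-DMa. P3h4 and Fkbp10 both act in collagen processing in the endoplasmic reticulum, and their TSSs lie 978 bp apart at a CpG ratio of 0.417. Hnrnpa2b1 encodes an RNA-binding protein and Cbx3 a heterochromatin protein, and their Spin1 peak lay within an H3K4me3 domain of 10777 bp. Snx5/Mgme1, 2 bp apart, and 2810004N23Rik/Gnpat and Hars/Hars2, each 4 bp apart, had Spin1 peaks of 4180, 2916 and 2188 bp.

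In 17 pairs the Spin1 peak covered the TSS of 1 gene and not that of its partner. Their TSSs were 324 to 994 bp apart, whereas no closer pair was split in this way. The CpG ratio around the covered TSS exceeded that around the uncovered one in 16 of 17 pairs, with medians of 0.571 and 0.433. In 14 of these 17 pairs a single H3K4me3 peak covered both TSSs. In 10 pairs, the first 1 kb of one gene was wholly covered by Spin1 and that of the partner not at all. The closest 5 of them were Serinc4/Hypk, Trim46/Krtcap2, Surf4/Stkld1, Bak1/Ggnbp1 and Cbln3/Khnyn.

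At these pairs the covered gene was Hypk, a partner of the N-terminal acetyltransferase NatA, Krtcap2, a subunit of the oligosaccharyltransferase, Surf4, a cargo receptor of the endoplasmic reticulum, Bak1, a pro-apoptotic Bcl2 family member, and Khnyn. The uncovered genes include Trim46, which acts in the neuronal axon initial segment, and Cbln3, a synaptic protein of cerebellar granule cells. At Serinc4/Hypk the Spin1 peak was 1590 bp wide and the H3K4me3 peak, 2971 bp wide, covered both TSSs. At Bak1/Ggnbp1 the H3K4me3 peak of 2562 bp covered the TSS of Bak1 alone. Sirt6/Ankrd24 and Haghl/Ccdc78, among the pairs with the longest distance, were split likewise, with Spin1 on Sirt6, a deacetylase gene, and on Haghl. Separate Spin1 peaks covered both TSSs in 6 pairs with TSSs 302 to 1000 bp apart, among them Zfyve26/Rad51b, and in all 6 a single H3K4me3 peak covered both.

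The 28 pairs with H3K4me3 and no Spin1 had narrower H3K4me3 peaks, with a median of 1753 bp for the widest peak in the windows of a pair (range 520 to 6903 bp), than the 881 pairs with Spin1, whose median was 4257 bp (1776 to 15319 bp). In 23 of the 28, 1 H3K4me3 peak covered both TSSs, with a median width of 1782 bp (632 to 6462 bp), whereas in 2 pairs 1 TSS was covered and in 3 neither. The highest H3K4me3 score in the windows was at least 3100 at all 881 pairs with Spin1, but at only 15 of these 28 pairs. Their median CpG ratio was 0.542, beside 0.782 at the pairs with Spin1. The 23 pairs with neither peak had a median CpG ratio of 0.276, and 16 of them had a ratio below 0.4. All 398 pairs with a CpG ratio of at least 0.8 had Spin1. The reverse did not hold, since 13 of the 38 pairs with a ratio below 0.4 had Spin1 as well.

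Of the 28 pairs with H3K4me3 only, the 10 with the widest H3K4me3 peak in their windows were Ccr10/Cntnap1 (6903 bp), Brox/Aida (6462 bp), Dpysl2/Pnma2 (2748 bp), Duox2/Duoxa2 (2619 bp), Lyzl4/Vipr1 (2509 bp), Lrrc74b/P2rx6 (2411 bp), Nup62cl/Dnaaf6b (2238 bp), Lrrc63/Lcp1 (2130 bp), Gng3/Bscl2 (1991 bp) and Tmie/Als2cl (1976 bp). At 2 of these pairs the peak named lay beside the TSSs. The peak of 6903 bp ended before the TSSs of Ccr10 and Cntnap1, and a second H3K4me3 peak covered the TSS of Cntnap1 alone, while at Gng3/Bscl2 neither TSS was under a peak. Ccr10 is a chemokine receptor of lymphocytes, Cntnap1 a protein of the myelinated axon, Dpysl2 a regulator of axon growth, Duox2 and Duoxa2 the hydrogen peroxide generator of the thyroid and its maturation factor, Lcp1 a leukocyte actin-bundling protein, and Bscl2 encodes seipin, a protein of lipid droplet formation. Brox/Aida had an H3K4me3 peak over both TSSs that was wider than 4257 bp, the median of the pairs with Spin1. The annotated TSSs of Brox and Aida cross, as do those of Gng3/Bscl2. Crossing TSSs also occur at pairs with Spin1 named above, such as Hspd1/Hspe1, Fen1/Tmem258, Hspb2/Cryab and Bak1/Ggnbp1. At Tns1/Rufy4, 993 bp apart, an H3K4me3 peak of 1827 bp covered both TSSs without Spin1.

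Among the 23 pairs with neither peak, the 10 with the highest CpG ratio were Ctnnd1/Btbd18 (0.633), Lypd4/Dmrtc2 (0.612), Gm4779/8030474K03Rik (0.603), Bhmt2/Dmgdh (0.544), Kctd19/Lrrc36 (0.543), Ush1g/Otop2 (0.537), Patl2/Terb2 (0.433), Gml/Gml2 (0.390), Slc30a3/Dnajc5g (0.373) and Dcst1/Dcst2 (0.364). Kctd19 and Terb2 act in meiosis, Btbd18 in the testis, Dcst1 and Dcst2 in sperm, Dmgdh in the choline and betaine metabolism of the liver, Slc30a3 in synaptic vesicles and Ush1g in hair cells of the inner ear. Ctnnd1 encodes p120 catenin, a protein of cell junctions in many tissues. Its paired TSS is 1 of 3 annotated TSSs, and another of them had Spin1. In total, 9 of the 102 genes of pairs without Spin1 had a Spin1 peak at another of their TSSs, namely Bscl2, Cnot8, Ctnnd1, Deaf1, Dpysl2, Ngef, Rab3il1, Slc25a53 and Usp37, a count made after the values were seen.

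The sequence of divergent promoters was compared with that of other protein-coding promoters by 8 fixed words, searched on both strands in the 250 bases before to 50 bases after each TSS. The promoter windows of both genes overlap in close pairs and then share their words. The word CCGGAAG, the core bound by GABP and other ETS factors, was found in 30.0% (28.0 to 32.1) of the promoters of paired genes and in 10.5% (10.1 to 10.99) of the others, and in 12.3% of all promoters. Among promoters with a CpG ratio of at least 0.6, the shares were 32.5% (30.2 to 34.8) and 17.7% (16.9 to 18.5). Of the 7 promoter intervals shown, that of Tsc2/Nthl1 holds it.

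The YY1 word AAGATGGCG was found in 5.25% (4.32 to 6.36) and 1.72% (1.54 to 1.91) of promoters, and in 5.77% and 3.14% of the CpG-rich ones. It occurs in 2.03% of all promoters. The NRF1 word GCATGCGC, in 3.68% of all promoters, was found in 6.33% (5.31 to 7.53) and 3.42% (3.17 to 3.69), but among CpG-rich promoters the shares of 6.90% and 5.92% had overlapping intervals. The CREB word TGACGTCA, in 2.61% of all promoters, was present in 4.43% (3.59 to 5.47) and 2.43% (2.22 to 2.66), but the CpG-rich shares of 4.89% (3.94 to 6.07) and 3.76% (3.38 to 4.17) had overlapping intervals. The TATAAA word was rarer in the promoters of paired genes, at 4.38% (3.54 to 5.41) beside 13.6% (13.1 to 14.1) of the others and 12.8% of all, and among CpG-rich promoters the shares were 4.01% and 6.26%.

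For GGGCGG, bound by SP and KLF factors and present in 49.2% of all promoters, the order depended on the CpG ratio. It was found in 68.3% of the promoters of paired genes and 47.4% of the others, but in 71.1% (68.9 to 73.3) and 74.5% (73.5 to 75.3) of the CpG-rich ones. The word CCAAT of NFY was found in 42.2% and 38.3%, and in 38.7% of all. Among the CpG-rich promoters its shares were 42.7% (40.3 to 45.2) and 36.55% (35.6 to 37.55). CAGCTG, the E-box that Myod1 recognizes, was found in 11.8% (10.4 to 13.4) of the promoters of paired genes and in 2969 of the 19151 others, and in 15.2% of all promoters. Its shares of the CpG-rich promoters were 10.6% (9.18 to 12.2) and 13.4% (12.7 to 14.1). The promoters that face a lncRNA gene held TATAAA in 5.09% (3.54 to 7.26), TGACGTCA in 4.36% (2.95 to 6.41) and CAGCTG in 11.5% (9.06 to 14.4) of 550 cases. For these words, as for GCATGCGC, CCAAT and GGGCGG, their intervals over all CpG ratios overlapped those of the paired genes. For CCGGAAG, at 18.4% (15.3 to 21.8), and AAGATGGCG, at 1.64% (0.863 to 3.08), they lay below. Among CpG-rich promoters, GGGCGG was found in 81.4% (77.45 to 84.8) of the lncRNA-facing ones, above the 71.1% (68.9 to 73.3) of the paired genes. At genes of head-to-head pairs more than 1 and up to 5 kb apart, AAGATGGCG was found in 3.49% (2.43 to 5) of 802 promoters. This interval overlapped that of the paired genes. The CpG-rich shares, 5.19% (3.42 to 7.80) and 5.77% (4.73 to 7.03), overlapped as well. For CCGGAAG the interval of this wider arrangement, 13.1 to 18.1, lay below that of the paired genes. All words are matches of letters and not bound sites.

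Counted by pair, the GABP/ETS word stood in either promoter of 330 pairs, of which 323 (97.9%) had Spin1, and 558 of the 602 pairs without the word (92.7%) had Spin1. The YY1 word stood in 66 pairs, all with Spin1, but so had 94.1% of the 866 pairs without it. The TATAAA word stood in 54 pairs, of which 47 (87.0%) had Spin1, beside 94.99% of the 878 pairs without it. Of the 51 pairs without Spin1, 7 held the GABP/ETS word and 7 the TATAAA word. CpG content moves with these words, and its part in these shares was not tested.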

How the data were processed

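ChIP-seq of primary myoblasts was represented by 2 deposited peak lists, 1 each for Spin1 and H3K4me3. Per the methods of the study, alignment of the paired-end reads (mm10) used bowtie 2, and MACS 1.4.2 then gave peaks relative to input, of which those with a false discovery rate of at most 1% were kept. The deposited files hold, per the labels and file contents, peak coordinates and a score, which MACS sets to its p-value as −log10, multiplied by 10. Read depth is unknown from these lists. Starts were converted to positions counted from 1. Genes, TSSs and sequence came from RefSeq annotation of GRCm38.p6 (NM_ transcripts). A promoter was TSS±1 kb, and an overlap of at least 1 base counted. For genes outside pairs, measures at 1 TSS used the RefSeq Select transcript. The lncRNA comparison was restricted to NR_ transcripts of lncRNA genes. Named pairs were the textbook and muscle pairs, the 5 widest, closest, most distant and most uneven, and up to 10 pairs per state. Of the textbook pairs, 2 are not reported here. Members and lists were chosen with earlier results of these data known. Functions were tested on simulated data. Alternatives changed the window, the peak score and the pair definition. Python 3.11.15, pandas 2.3.3 and scipy 1.17.1 were used.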

Additional observations from a re-analysis of the deposited data

How the results depend on the processing

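No paired analysis was possible because each antibody has 1 library and no test was run. Of 67 alternative values over 9 results, 52 stayed within the 95% interval of the value given above, 15 lay outside it and none changed sign. When the center of the peak had to lie within TSS±1 kb, Spin1 was at both genes of 88.3% of pairs, H3K4me3 at both of 83.8%, Spin1 at 95.5% of the pairs with H3K4me3, and the H3K4me3 difference between genes of pairs and other genes was 35.3 points. With the 50% of peaks with the highest score, Spin1 was at both genes of 88.2% of pairs and of 91.4% of the pairs with H3K4me3, 1 Spin1 peak covered both TSSs in 86.6%, and the differences to other genes were 50.2 points for Spin1 and 37.2 for H3K4me3. With RefSeq Select TSSs only (810 pairs), Spin1 was at both genes of 95.9%, and the differences were 43.8 (Spin1) and 33.8 points (H3K4me3). With TSSs at most 300 bp apart, 1 Spin1 peak covered both in 94.6%. Weighting the other genes to the CpG classes of the paired genes reduced the differences to 12.3 (Spin1) and 3.53 points (H3K4me3). Windows of 0.5 or 2 kb, a score of at least 100, 1 pair per gene, a slack of 100 bp at the TSS and, chosen after seeing the data, leaving out the 108 pairs whose annotated TSSs cross moved no value outside its interval. Peak lists without read counts do not show signal below the threshold, so a promoter without a peak is not shown to lack Spin1 or H3K4me3.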

Other observations

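Divergent pairs on chromosome X carried Spin1 less often than those on autosomes. Spin1 was at both genes of 19 of 25 pairs on chromosome X (76%, 95% Wilson interval 56.6 to 88.5) and of 862 of 907 pairs on the autosomes (95.04%). H3K4me3 was at both genes of 23 of the 25. The median CpG ratio of the shared promoter was 0.613 on chromosome X and 0.778 on the autosomes, and its part in the difference was not tested. Between the 19 autosomes the share with Spin1 ranged from 84.4% on chromosome 14 to 100% on 2 chromosomes. This comparison was made after the values were seen.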
